A study of Mus musculus with 6 samples.

Results

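The Notch pathway was described through 10 genes chosen by name: the receptors Notch1, Notch2 and Notch3, the ligands Dll1, Dll3 and Jag1, and the target genes Hes1, Hes5, Hey1 and Hey2. They are 10 of the 53421 genes in the deposited table of counts. The RNA-seq libraries came from cerebellar granule cells (GCs), the small excitatory neurons of the cerebellum, of C57BL/6 mice at postnatal day 8, which were dissociated and kept in Neurobasal-A medium with B27. The 3 shYthdf2 libraries came from cultures given a lentivirus whose short hairpin RNA targets Ythdf2, and the 3 shCtrl libraries from cultures given a control hairpin. Both groups therefore carried a lentivirus, and the study's methods describe a puromycin selection of infected neurons. YTHDF2 is a reader of N6-methyladenosine in RNA that is known to promote the decay of the mRNAs it binds. The comparison asks which of the pathway's mRNAs differed in abundance after YTHDF2 knockdown (KD).

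Notch receptors are cut after they bind a ligand on a neighbouring cell, and the freed intracellular part enters the nucleus, where it joins the DNA-binding protein RBPJ and a Mastermind coactivator. The genes switched on by this complex include the Hes and Hey genes, whose products repress the genes of neuronal differentiation. In the cerebellum, Notch2 signalling is known for holding granule cell precursors in division, and Notch signalling is also needed by the Bergmann glia, in which Hes5 is a usual target. A culture of GCs can thus hold Notch transcripts from neurons and from remaining glia.

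The libraries held 17246821 to 21546595 counts, and all values are counts normalized by the trimmed mean of M-values (TMM) to a common library size. Sample titles and the genotype field disagree with library names on which 3 libraries are the KD. The groups follow the library names, which carry the number of a Ythdf2 hairpin in the study's methods, and if the titles were right, each difference would change sign. As the measure of the targeted gene, Ythdf2 was lower in all 3 libraries named for its hairpin. It was at 501, 402 and 501 normalized counts in shYthdf2 replicates 1, 2 and 4, against 618, 841 and 628 in shCtrl, and its log2 fold change of -0.57 ± 0.165 (SE) had an adjusted p of 0.125 (edgeR). The 2 libraries numbered 2 stood apart in both groups. Replicates 1 and 4 of a group differed from each other by a chi-square per degree of freedom of 3.34 in shYthdf2 and 4.68 in shCtrl, where 1 is counting noise, while pairs with replicate 2 gave 33.1 to 55.3. Results are therefore also given for replicates 1 and 4 only. The study's methods describe 3 biological replicates per group, while the labels do not say whether these were separate cultures. The p-values measure the spread between these libraries, part of which may be technical.

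None of the 10 Notch genes passed the edgeR quasi-likelihood test of shYthdf2 against shCtrl with Benjamini-Hochberg adjustment over 17214 genes. All 10 passed the filter on low counts, 0 had an adjusted p-value under 0.05, and 0 had an unadjusted p-value under 0.05. DESeq2 and limma-voom also called 0 of the 10, although DESeq2 gave no adjusted p for Hes1. Over all genes tested, 0.604% passed the adjusted threshold by edgeR and 20.1% the unadjusted one, while DESeq2 called 8.5% and limma-voom 0.139%. The mean was higher in shYthdf2 for 9 of the 10 genes and lower for Dll3. The median log2 fold change was 0.28 for the 10 genes and 0.01 for all genes tested. Only Dll3 had groups that did not overlap, which is 1 of 10 genes against 26% of all genes tested. The plot of normalized counts by library shows the overlap, and the plot of fold changes shows that every 95% interval covers 0.

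**Figure D1:**
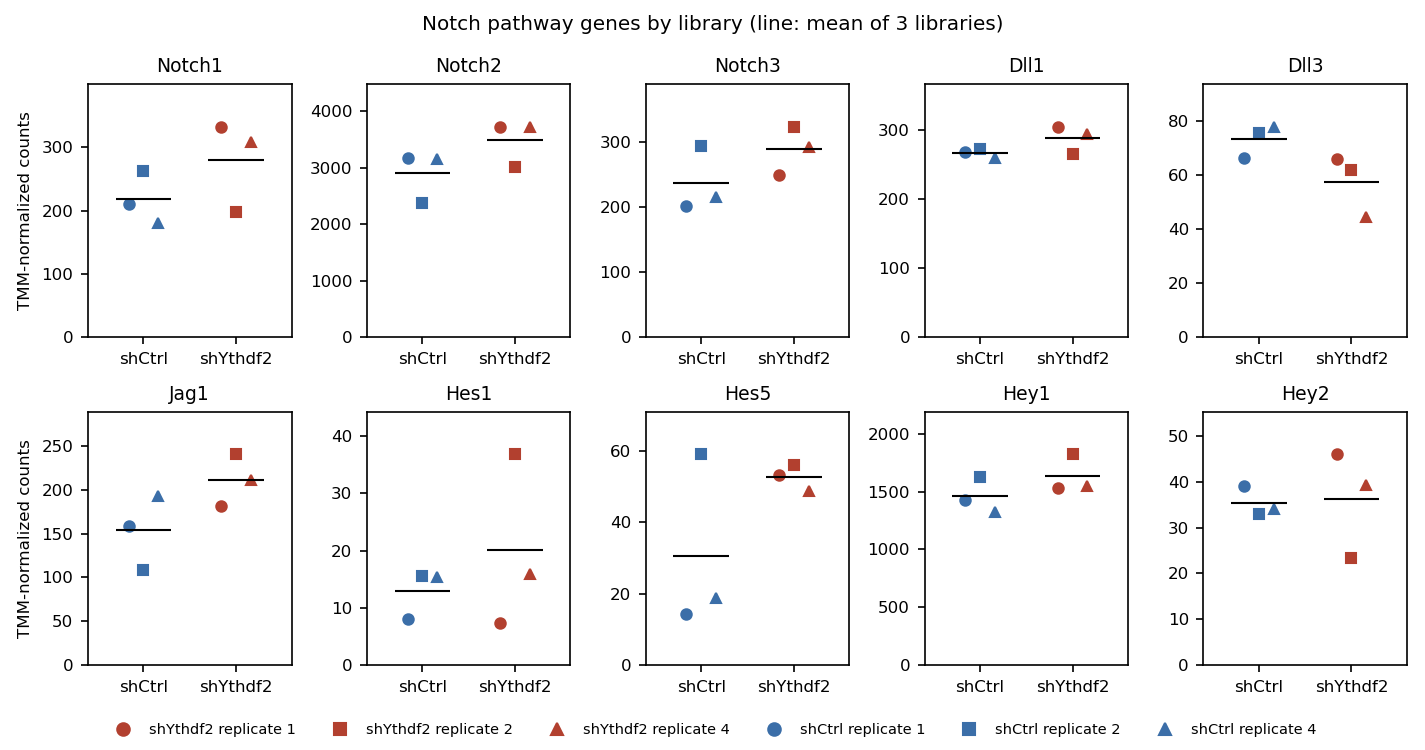
Normalized counts of the 10 Notch pathway genes (vertical axes, TMM-normalized counts, from 0) in the 3 shCtrl and 3 shYthdf2 libraries, with a symbol per replicate number and a line at the mean of 3 libraries. Dll3 is the one panel in which the groups are apart, and in Hes5 the shCtrl replicate 2 library sits at 59.1, level with the shYthdf2 libraries, while the other two shCtrl libraries are at 14.2 and 18.7.

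Among the receptors, Notch2 was by far the most abundant. Its transcript lies on chromosome 3 from 98013527 to 98150361 (GRCm38). It was measured at 3719, 3019 and 3728 normalized counts in shYthdf2 replicates 1, 2 and 4, and at 3171, 2381 and 3158 in shCtrl. Replicate 2 was the lowest library in each group, and the groups overlapped only because shYthdf2 replicate 2 lay below shCtrl replicates 1 and 4. The log2 fold change was 0.26 ± 0.147 (SE), with a 95% interval from -0.08 to 0.61 and an adjusted p of 0.357 (edgeR). Within each replicate number Notch2 was higher in shYthdf2, with log2 ratios of 0.23, 0.34 and 0.24. With a batch term for replicate 2 in the edgeR fit, Notch2 was the only one of the 10 genes called (adjusted p = 0.0174), where 22.1% of all genes tested were called. With the replicate numbers as a block, which also removes what same-numbered libraries share, its adjusted p was 0.0744 (edgeR).

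Notch1, the receptor best known for the control of neural and glial progenitors, lies on chromosome 2 from 26457903 to 26516663. It was at 332, 198 and 309 normalized counts in shYthdf2 replicates 1, 2 and 4, and at 210.2, 263 and 180.2 in shCtrl. Replicates 1 and 4 were higher in shYthdf2 and replicate 2 was lower, so that the log2 ratios were 0.66, -0.41 and 0.78. The fit over all libraries gave 0.36 ± 0.239 (SE) on the log2 scale, with an interval from -0.20 to 0.92 and an adjusted p of 0.444 (edgeR). The difference between replicate 2 and the other replicates, tested as an interaction in a separate fit, was -1.12 on the log2 scale (95% interval -1.54 to -0.70, adjusted p = 0.000513, edgeR). In that fit only replicates 1 and 4 give a spread within a group, so its interval and p-value hold none from replicate 2.

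Notch3, a receptor known from the mural cells of blood vessels, lies on chromosome 17 from 32120820 to 32166852. It was at 249.9, 324 and 293 normalized counts in shYthdf2 replicates 1, 2 and 4, and at 201, 294 and 215 in shCtrl. It was higher in shYthdf2 within each replicate number, while replicate 2 was the highest library of both groups. The log2 fold change was 0.29 ± 0.193 (SE) with an adjusted p of 0.453 (edgeR). The 7 mural cell markers, summed, also had their highest library in replicate 2 of each group, with 522, 1256 and 499.9 normalized counts in shYthdf2 replicates 1, 2 and 4 and 402, 819 and 433 in shCtrl. Single markers with few counts differed from the sum. Tagln was lowest in replicate 2 of shYthdf2 (4.18, 0.97 and 5.31 in replicates 1, 2 and 4). Abcc9 was lowest in replicate 2 of shCtrl (8.87, 6.78 and 8.79). The part of the mural cell markers in the Notch3 values was not tested.

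Of the ligands, Dll3 had a lower mean in shYthdf2, Jag1 a higher one, and Dll1 one that was nearly level. Dll1, a Delta ligand that activates Notch on neighbouring cells, lies on chromosome 17 from 15367354 to 15376872. It was at 305, 266 and 295 normalized counts in shYthdf2 replicates 1, 2 and 4, and at 268, 272 and 259 in shCtrl, which gave 0.12 ± 0.130 (SE) on the log2 scale with an adjusted p of 0.664 (edgeR). The 95% interval ran from -0.19 to 0.42. A930024N18Rik, a long noncoding RNA on the other strand, overlaps Dll1 and held at most 58 counts in a library, while Dll1 held at least 236. Whether the counting used strand is not given in the sources used here.

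Dll3, a Delta family member that acts inside the cell and does not activate Notch, lies on chromosome 7 from 28293553 to 28302238. It was at 65.9, 62.0 and 44.6 normalized counts in shYthdf2 replicates 1, 2 and 4, and at 66.5, 75.6 and 78.0 in shCtrl. All 3 shYthdf2 libraries were below all 3 shCtrl libraries, but the highest shYthdf2 and the lowest shCtrl library nearly met. The log2 fold change was -0.35 ± 0.237 (SE), with an interval from -0.90 to 0.20 and an adjusted p of 0.454 (edgeR). In the two-sided exact permutation test of the means p was 0.1, the smallest that 3 libraries against 3 allow.

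Jag1, a Jagged ligand, lies on chromosome 2 from 137081456 to 137116644. It was at 182, 240.4 and 211 normalized counts in shYthdf2 replicates 1, 2 and 4, and at 159, 108 and 193 in shCtrl. The log2 ratios within replicate numbers were 0.20, 1.15 and 0.13, so that replicate 2 carried most of the difference. The log2 fold change over all libraries was 0.46 ± 0.240 (SE), with an interval from -0.10 to 1.02 and an adjusted p of 0.329 (edgeR), and over replicates 1 and 4 it was 0.16 (adjusted p = 0.345, edgeR). The interaction with replicate 2 was 0.98 on the log2 scale, of the opposite sign to that of Notch1 (adjusted p = 0.00671, edgeR).

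The target genes differed widely in level. Hey1, a transcriptional repressor of the Hairy/Enhancer-of-split family with a YRPW motif, lies on chromosome 3 from 8663359 to 8667256. It was at 1529.7, 1823 and 1547 normalized counts in shYthdf2 replicates 1, 2 and 4, and at 1429, 1628 and 1320.5 in shCtrl. Each shYthdf2 library was above the shCtrl library of its number, but the groups overlapped. The log2 fold change was 0.16 ± 0.12 (SE), with an interval from -0.12 to 0.44 and an adjusted p of 0.495 (edgeR).

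Hes5, the repressor that marks Notch activity in glial and neural progenitors, lies on chromosome 4 from 154960923 to 154962371. It was at 53.3, 56.2 and 48.8 normalized counts in shYthdf2 replicates 1, 2 and 4, and at 14.2, 59.1 and 18.7 in shCtrl. The 3 shYthdf2 libraries were alike, and the shCtrl libraries split into replicate 2, which was the highest of all 6, and replicates 1 and 4, which were the lowest. The log2 fold change over all libraries was 0.78 ± 0.517 (SE), with an interval from -0.43 to 1.99 and an adjusted p of 0.442 (edgeR). Without shCtrl replicate 2 it was 1.69 (adjusted p = 0.0107, edgeR), and Hes5 was then the 1 gene of the 10 called, against 18.3% of all genes. The log2 ratios within replicate numbers were 1.91, -0.07 and 1.39, and the interaction with replicate 2 was -1.72 (adjusted p = 0.00589, edgeR).

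Hes1 and Hey2 had few counts. Hes1, a repressor of proneural genes, lies on chromosome 16 from 30064384 to 30067796. It was at 7.32, 36.8 and 15.9 normalized counts in shYthdf2 replicates 1, 2 and 4, and at 7.98, 15.5 and 15.4 in shCtrl, which rest on 7 to 38 counts a library. Only shYthdf2 replicate 2 stood above the range of shCtrl by more than 1 normalized count, and the interval of the log2 fold change of 0.64 ran from -0.76 to 2.05. Hey2, a repressor related to Hey1, lies on chromosome 10 from 30832359 to 30842801 and was at 46.0, 23.3 and 39.3 normalized counts in shYthdf2 replicates 1, 2 and 4, and at 39.0, 32.9 and 34.1 in shCtrl. The shYthdf2 libraries lay on both sides of shCtrl, and its log2 fold change of 0.03 had an interval from -0.71 to 0.77. Differences within these intervals were not detectable in these libraries.

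**Figure D2:**
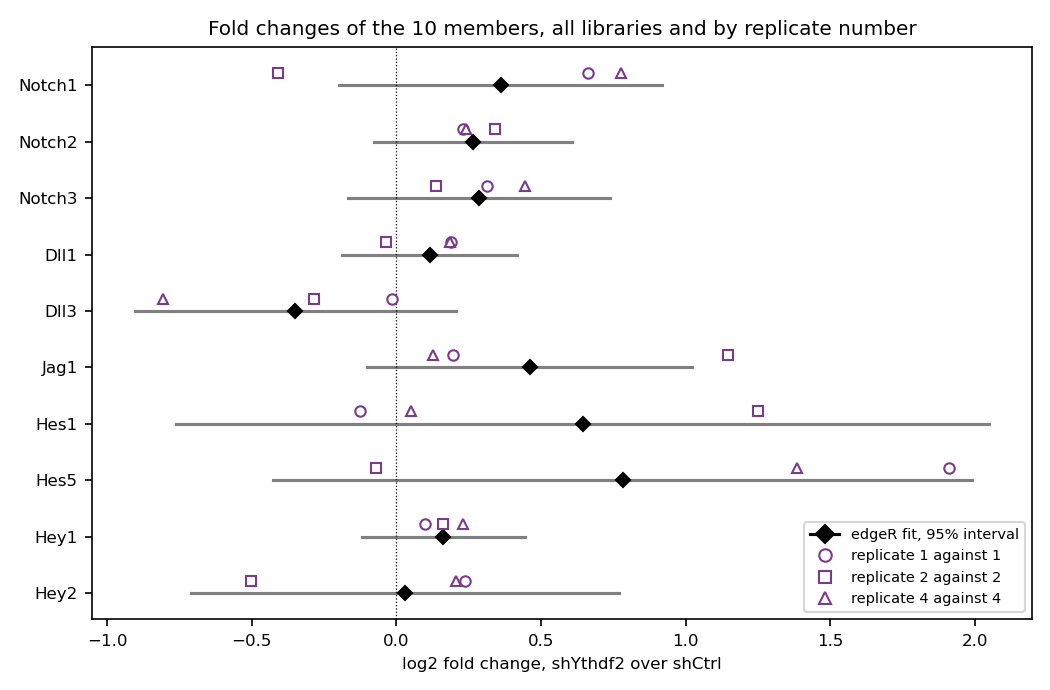
Log2 fold changes of shYthdf2 over shCtrl (horizontal axis) for the 10 genes, with the edgeR estimate as a diamond, its 95% interval as a grey line, and the log2 ratio of the libraries with replicate number 1, 2 or 4 as open symbols above it. For Notch1 and Hes5 the ratio of replicate 2 lies below 0 and the others lie above it, and for Jag1 and Hes1 replicate 2 lies at 1.15 and 1.25, far above the others.

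The promoters of Hes5 and Hey2 are shown because RBPJ, the DNA-binding protein of the pathway, recognises the core GTGGGAA. The 250 bases before each gene's start were taken from RefSeq promoters on GRCm38.p6, where 8 of the 10 genes had an entry, all but Hes1 and Hey1. RefSeq starts can differ from the GENCODE positions given above. The windows of Notch1 and Dll3 and 1 of the 2 windows of Dll1 lay wholly within the GENCODE gene. Those of Notch2, Jag1 and Hey2 reached partly into it. The core was searched on both strands (TTCCCAC is its other strand) and was found in Hes5 and Hey2 and in none of the 6 receptors and ligands. Of 32851 promoters of the same length 5.42% held it, and 0.161% held it at 2 or more places. The sequences are given 5′ to 3′ on the strand of the gene with the core in capitals, for Hes5 from chr4:154960673-154960922 on the plus strand and for Hey2 from chr10:30842784-30843033 on the minus strand.
Hes5: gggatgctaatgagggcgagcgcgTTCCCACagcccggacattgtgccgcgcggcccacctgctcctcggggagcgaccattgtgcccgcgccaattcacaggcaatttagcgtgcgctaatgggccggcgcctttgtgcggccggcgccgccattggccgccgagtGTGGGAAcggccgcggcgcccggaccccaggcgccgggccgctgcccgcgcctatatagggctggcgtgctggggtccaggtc
Hey2: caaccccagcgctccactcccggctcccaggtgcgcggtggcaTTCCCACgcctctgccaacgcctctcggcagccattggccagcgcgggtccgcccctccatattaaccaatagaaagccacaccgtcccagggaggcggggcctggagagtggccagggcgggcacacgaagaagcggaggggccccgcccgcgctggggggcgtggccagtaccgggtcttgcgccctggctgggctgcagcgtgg
Hes5 holds the core at 2 places, once on each strand, with first bases 226 and 83 bases before the start, and Hey2 holds it once, 207 bases before the start. These matches describe letters in the window and are no measure of binding. In replicates 1 and 4 the counts of Hes5 and Hey2 were also not alike. Hes5 was at 14.2 and 18.7 in shCtrl and at 53.3 and 48.8 in shYthdf2, whereas Hey2 stayed between 34.1 and 46.0. In replicate 2 Hes5 was at 59.1 in shCtrl and 56.2 in shYthdf2, and Hey2 was at 32.9 and 23.3. Neither gene was called by edgeR over all libraries.

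Levels of different genes were compared as normalized counts per kilobase of exon. In shCtrl the order of the means was Hey1 (447), Notch2 (269), Dll1 (63.2), Notch3 (29.3), Jag1 (26.3), Dll3 (25.7), Hes5 (22.5), Notch1 (15.3), Hey2 (7.69) and Hes1 (6.36). Neighbours in this order were apart in all 3 shCtrl libraries for Hey1 over Notch2, Notch2 over Dll1, Dll1 over Notch3 and Notch1 over Hey2, and the other neighbours did not differ beyond their spread. Hey1 lay above 85.8% of all genes tested per kilobase and Hes1 above 9.99%. Notch2 made up 85.3% ± 1.31 (SD, n = 3) of the summed level of the 3 receptors in shYthdf2 and 85.5% ± 4.64 in shCtrl. Hey1 made up 89.9% ± 0.213 of the 4 target genes in shYthdf2 and 92.7% ± 2.81 in shCtrl. Dll3 was 16.1% ± 2.88 of the 3 ligands in shYthdf2 and 22.4% ± 1.86 in shCtrl, with no overlap between the groups (exact permutation p = 0.1, two-sided). Dll1 took 54.8% ± 4.21 of these 3 ligands in shYthdf2 and 55.0% ± 4.28 in shCtrl. Jag2, another Jagged ligand, is not among the 10 genes and was named after its values were seen. Its mean per kilobase was 372 in shCtrl and 326 in shYthdf2, above that of each of the 3 ligands.

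**Figure D3:**
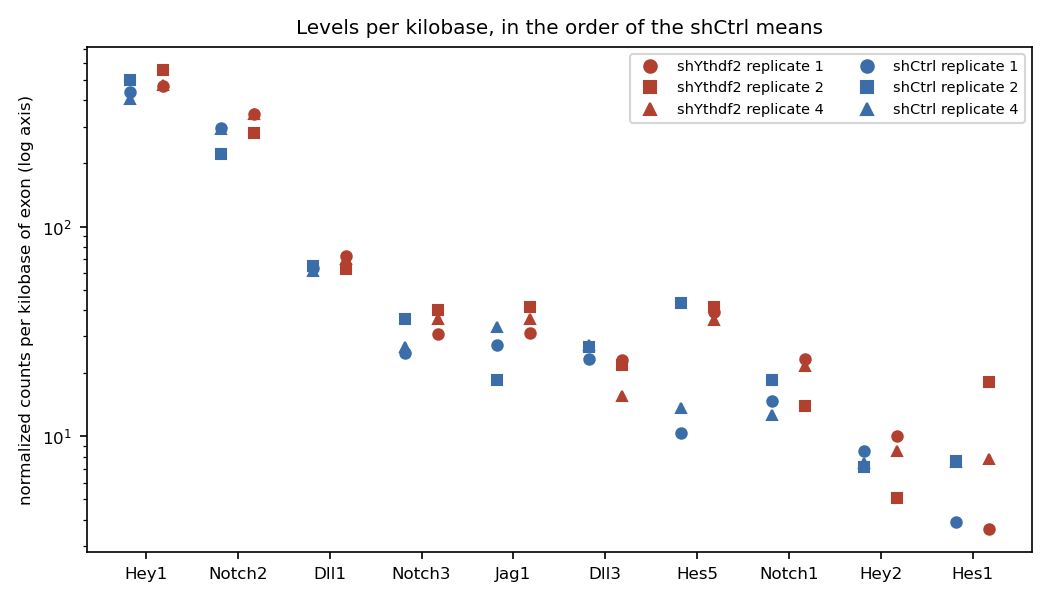
Normalized counts per kilobase of exon (vertical log axis) of the 10 genes in the 3 shCtrl and 3 shYthdf2 libraries, ordered by the shCtrl mean, with a symbol per replicate number. Hey1 and Notch2 stand above 200 in every library, Dll1 lies between 61.5 and 72.4, and the 5 genes from Notch3 to Notch1 run into each other.

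Over replicates 1 and 4 only, 5 of the 10 genes had an adjusted p-value under 0.05, all of them higher in shYthdf2, where 52.7% of all genes tested did. They were Notch1 (log2 fold change 0.71, adjusted p = 9.08e-05), Notch2 (0.23, 4.1e-05), Notch3 (0.38, 0.0128), Hes5 (1.64, 0.000207) and Hey1 (0.16, 0.0153), all by edgeR. The share of the 10 genes was thus close to that of all genes, and these tests rest on the small spread between replicates 1 and 4. In the interaction with replicate 2, 3 of the 10 genes were called, namely Notch1, Jag1 and Hes5, against 27.3% of all genes tested. The interaction tests also rest on the small spread between replicates 1 and 4. The KD-control difference of Notch1 and Hes5 was larger in replicates 1 and 4 than in replicate 2, and that of Jag1 was smaller.

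The labelled cell type was checked against marker genes, and the summed astrocyte and Bergmann glia markers split between libraries as Hes5 did. The 10 granule neuron markers summed to 188498 to 196717 normalized counts in shYthdf2 and 187880.0 to 197136 in shCtrl, but single markers went both ways. Groups did not overlap for 2 higher markers (Reln and Rbfox3) and 2 lower ones (Neurod1 and Cbln1), against 26% of all genes tested. By edgeR 0 of the 10 had an adjusted p-value under 0.05, while DESeq2 called 2 lower, where it called 8.5% of all genes. The 9 markers of astrocytes and Bergmann glia summed to 12882, 11590.4 and 12754 in shYthdf2 replicates 1, 2 and 4, and to 6103, 13699 and 6174 in shCtrl. All 9 were tested, and 0 of them had an adjusted p-value under 0.05 over all libraries. As with Hes5, their sum was highest in shCtrl replicate 2 and lowest in shCtrl replicates 1 and 4. Sox9, a transcription factor of glia, differed from this, with shCtrl replicate 2 the lowest shCtrl library. Fabp7, a fatty acid binding protein of radial and Bergmann glia, was at 3043, 2331 and 3144 in shYthdf2 and at 979, 2685 and 979.9 in shCtrl. In Fabp7, Aqp4 and Gdf10 shCtrl replicate 2 was the highest shCtrl library but not the highest of all libraries. For Aqp4 it was at 1939, below the 2422, 2100 and 2267 of shYthdf2 replicates 1, 2 and 4. The 6 markers of the oligodendrocyte lineage had the same split within shCtrl, with 4504 and 4225 in replicates 1 and 4 and 15145 in replicate 2, and summed to 11405, 15538 and 11779.8 in shYthdf2 replicates 1, 2 and 4. The 6 microglia markers were at 145, 524 and 133 in shCtrl replicates 1, 2 and 4 and at 716, 286 and 746 in shYthdf2, so that shYthdf2 replicate 2 was far below the other shYthdf2 libraries, unlike in Hes5. Over replicates 1 and 4, 8 of the 9 astrocyte and Bergmann glia markers were called higher in shYthdf2, all but Sox9, where 52.7% of all genes were called. In bulk libraries fewer cells of a type and less RNA per cell cannot be told apart, and the part of the glial markers in the Hes5 and Notch1 values was not tested.

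**Figure D4:**
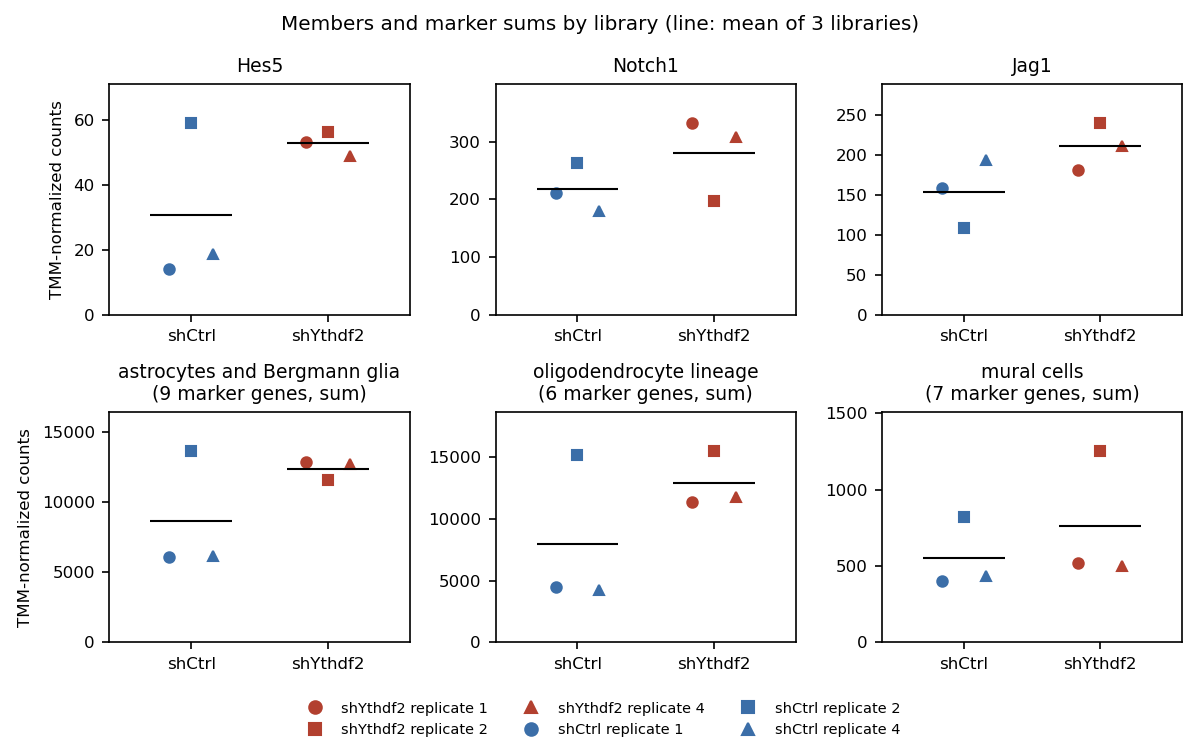
Normalized counts of Hes5, Notch1 and Jag1 (upper row) and summed normalized counts of 3 marker lists (lower row) in the 6 libraries, with a symbol per replicate number and a line at the mean of 3 libraries. In Hes5 and in both glial sums shCtrl replicate 2 lies far above the other shCtrl libraries, and the mural cell sum is highest in replicate 2 of both groups.

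The summed levels of 5 other lists did not overlap between the groups (two-sided exact permutation p = 0.1 for each), and in the 4 cell type lists among them 0 genes had an adjusted p-value under 0.05 by edgeR. The 8 endothelial markers summed to 269.6 to 496 normalized counts in shYthdf2 and 166 to 268 in shCtrl, with Cldn5 at 3 counts or fewer in every library and Cdh5 at 276 in shYthdf2 replicate 2. The 8 markers of proliferating progenitors summed to 230.0 to 246 in shYthdf2 and 125 to 216 in shCtrl, although the mean of Gli1, which had few counts, was lower in shYthdf2. The 7 Purkinje cell and interneuron markers summed to 7516 to 9492 and 6119 to 7217, although the means of Calb1 and Pcp2 were lower in shYthdf2. The 6 markers of multiciliated ependymal cells summed to 705 to 895 and 395 to 516, although the means of Ccdc153 and Dynlrb2 were lower in shYthdf2. The 10 immediate-early genes, which follow neuronal activity, summed to 3895 to 6056 in shYthdf2 and 14592 to 54598 in shCtrl. By edgeR 9 of them had a lower fold change and 1 a higher one. It called 4 of them lower (adjusted p under 0.05), where 0.604% of all genes tested were called. The part of these lists in the Notch values was not tested.

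The other genes of the pathway, from a list of 56 ordered by role, had 24 higher and 28 lower fold changes among those tested. Of the 56 genes 52 were tested, since Dlk1 had 0 counts in every library and Mfng, Hes2 and Hes3 did not pass the filter. None of the 52 had an adjusted p-value under 0.05 by edgeR or limma-voom, and DESeq2 called 4, among them Dll4, Aph1a and Dtx2, where it called 8.5% of all genes and gave no adjusted p for Hes7. At an unadjusted p-value under 0.05 edgeR had 6 higher and 9 lower, and the groups did not overlap for 10 higher and 9 lower, to be read against 20.1% and 26% of all genes. The median log2 fold change of the 52 genes was -0.04. With the batch term for replicate 2, 6 were called higher and 11 lower, where 22.1% of all genes were called.

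Dll4, the Delta ligand of blood vessels and of some neural progenitors, had the largest log2 fold change of the genes with an unadjusted p-value under 0.05. It was at 255, 197 and 253 normalized counts in shYthdf2 replicates 1, 2 and 4, and at 89.6, 169.5 and 75.8 in shCtrl, with no overlap. Its log2 fold change was 1.07 ± 0.314 (SE), with an adjusted p of 0.131 by edgeR and 0.0208 by DESeq2. The log2 ratio was 0.22 within replicate 2 and 1.51 and 1.74 within replicates 1 and 4. As with Hes5, the ratio of replicate 2 was the smallest, but Dll4 in shCtrl replicate 2 lay below every shYthdf2 library. Dlk2, a Delta-like protein without the Notch-binding domain of the classical ligands, was at 751, 746 and 861 in shYthdf2 and at 1556, 777 and 1585 in shCtrl (log2 fold change -0.73, adjusted p = 0.179, edgeR). Here shCtrl replicate 2 was level with shYthdf2 and the other shCtrl libraries were at 1556 or above. Both genes overlap a gene on the other strand. Gm14207 held at most 59 counts in a library, while Dll4 held at least 69. Abcc10 held at most 1255 counts, while Dlk2 held at least 718. The part of these overlaps in the Dll4 and Dlk2 values was not tested.

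Of the ligand ubiquitin ligases 1 of 5, of the receptor glycosyltransferases 1 of 4 and of the receptor proteases 2 of 10 tested genes had an unadjusted p-value under 0.05, where 20.1% of all genes did. Their means were lower in shYthdf2, and none had an adjusted p-value under 0.05 by edgeR. Aph1a, a subunit of the gamma-secretase that frees the intracellular part of Notch, was at 1084, 1100.4 and 1092 normalized counts in shYthdf2 and at 1602, 1375 and 1599.5 in shCtrl, without overlap. Its log2 fold change was -0.48 ± 0.0993 (SE), with an adjusted p of 0.0686 by edgeR and 0.00453 by DESeq2. Rfng, a Fringe glycosyltransferase that modifies the receptors, was at 1916, 1510.5 and 1935 in shYthdf2 and at 2681, 2036 and 2527 in shCtrl (log2 fold change -0.43, adjusted p = 0.162, edgeR). Mib2, a ubiquitin ligase of the ligands, differed by -0.34 on the log2 scale (adjusted p = 0.227, edgeR).

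In the nucleus and in receptor turnover, values went both ways. Maml2, a Mastermind coactivator, was at 315, 302 and 314 normalized counts in shYthdf2 and at 146, 268 and 163 in shCtrl (log2 fold change 0.69, adjusted p = 0.172, edgeR). Rbpj, named after its values were seen, was at 1512, 1457 and 1518 in shYthdf2 and at 1126, 1151 and 1313 in shCtrl, with no overlap (log2 fold change 0.32, adjusted p = 0.141, edgeR). Kat2a, a histone acetyltransferase, differed by -0.36 on the log2 scale (adjusted p = 0.167, edgeR). Fbxw7, which marks the Notch intracellular part for degradation, was at 1235, 1524 and 1182 in shYthdf2 and at 959, 1094 and 927 in shCtrl (log2 fold change 0.40, adjusted p = 0.154, edgeR). Dtx2, a Deltex ubiquitin ligase, was at 332, 284 and 315 in shYthdf2 and at 461, 382 and 490.0 in shCtrl (log2 fold change -0.52, adjusted p = 0.119, edgeR). None of the 4 tested genes among the other targets had an unadjusted p-value under 0.05 by edgeR.

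**Figure D5:**
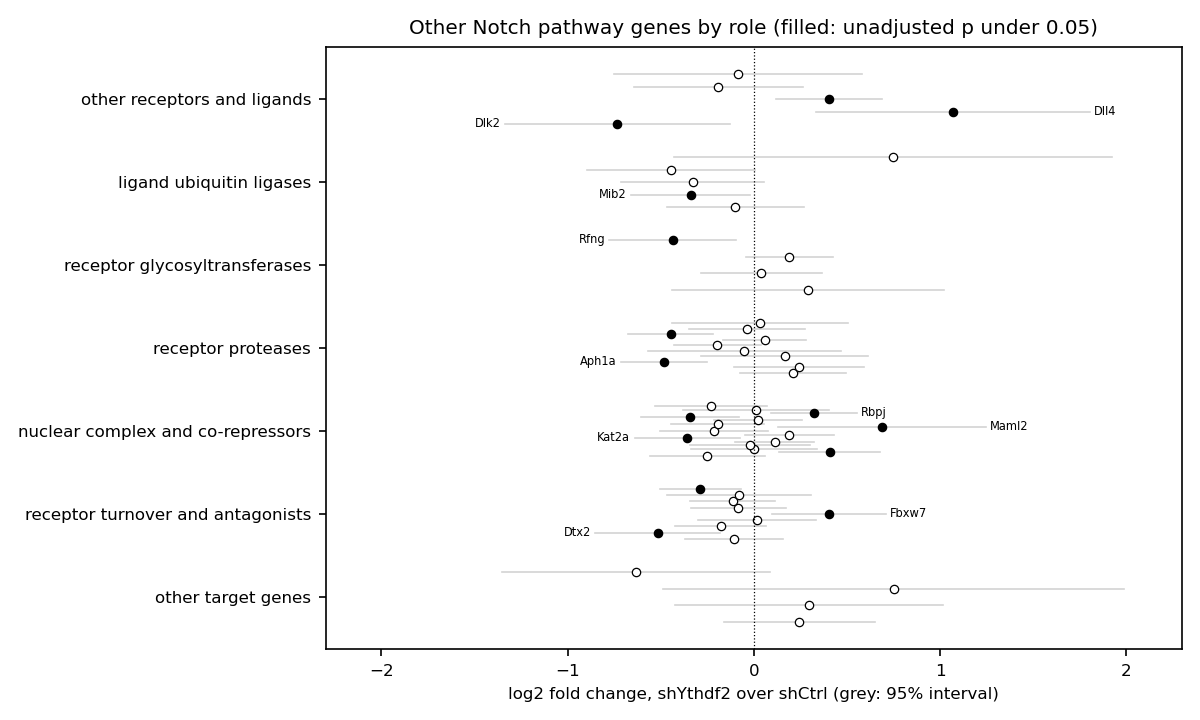
Log2 fold changes of shYthdf2 over shCtrl (horizontal axis) for the 52 other Notch pathway genes tested, by role, with the edgeR estimate as a circle and its 95% interval in grey. Filled circles are the 15 genes with an unadjusted p-value under 0.05, of which 6 lie above 0 and 9 below it, and names are given for the genes described in the text.

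For each of the 10 genes, the genes with the most similar pattern were sought by Pearson's r of log2 normalized counts over the 6 libraries, among 12562 genes with a mean of at least 50 normalized counts. With 6 points that share group and replicate 2, such r are descriptions only. Nearest to Notch1 were Maf (r = 0.990) and Rasgrf1 (0.990). Nearest to Notch2 were Cfap44 (0.999) and Rab36 (0.997), and nearest to Notch3 were Ints4 (0.997) and Cep19 (0.993). Tmem116 and Mirlet7b lay nearest to Dll1 (0.988 and 0.987), Gm5884 and Trmt1l to Dll3 (0.968 and 0.961), and Gm5182 and Mok to Jag1 (0.989 and 0.981). For the targets they were N4bp2os (0.988) and Kpna6 (0.976) for Hes1, Paqr8 (0.998) and Tmem41b (0.997) for Hes5, Commd3 (0.999) and Tmem114 (0.998) for Hey1, and N4bp2l1 (0.989) and Mllt3 (0.975) for Hey2. The number of genes with r over 0.95 was 452 for Hes5 and 233 for Notch2, and it was 3 for Dll3 and 7 for Hes1.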

How the data were processed

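The authors deposited a table of whole-number counts per gene without normalization, with 1 column for each of the 3 shYthdf2 and 3 shCtrl libraries. By the study's methods HISAT and TopHat2 placed the reads on GRCm38 and HTSeq counted them, whereas the submitters' processing notes name Bowtie 0.12.2 and another build. Gene identifiers, positions and exon lengths were matched to GENCODE M21 (GRCm38), and 785 of 53421 genes were outside it. On the deposited counts edgeR 4.0.16 (R 4.3.3) was fitted with group alone, TMM normalization, filterByExpr (minimum count 10, minimum total 15), the quasi-likelihood test and Benjamini-Hochberg adjustment over the 17214 genes kept. SEs and 95% intervals came from the same fit. For single values an exact permutation test, two-sided, took all 10 splits.

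Alternatives were RLE size factors, library size alone, no filter, at least 10 counts in every library, DESeq2 1.42.0, limma-voom (limma 3.58.1), the replicate number as a block, a batch term for replicate 2, replicates 1 and 4 only, and each library left out. The interaction of group with replicate 2 was added after the values per library were seen. The deviations from the group means of same-numbered libraries correlated at 0.252, 0.36 and 0.322 for numbers 1, 2 and 4. Libraries of different numbers were not compared in this way, and replicate 2 stood apart in both groups. These values therefore cannot show whether numbers 1 and 4 pair the libraries.

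The 10 genes, the lists and the markers were chosen with earlier results of these data known. Named were all 10, Ythdf2, per role of the wider list the largest rise and fall with an unadjusted p-value under 0.05, and per member the 2 genes of highest r. Rbpj and Jag2 were named after their values were seen. A result of the wider list is not reported here. The depth of 17246821 to 21546595 counts limits genes with few counts. Promoters were searched in Python 3.11.15, and matplotlib 3.10.9 drew the plots.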

Additional observations from a re-analysis of the deposited data

How the results depend on the processing

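The count of Notch genes past the adjusted threshold stayed at 0 under RLE size factors, library size alone, both other filters, DESeq2, limma-voom and the replicate block. Hes1 was removed by the filter of at least 10 counts in every library and had no adjusted p with DESeq2. It was 1 with the batch term for replicate 2 (Notch2) and 5 with replicates 1 and 4 only, and from 0 to 1 when a library was left out, the 1 being Hes5 without shCtrl replicate 2. For the other 52 pathway genes it was 4 with DESeq2, 17 with the batch term and 35 with replicates 1 and 4 only. With a library left out it ranged from 0 to 16, again with the highest value without shCtrl replicate 2. The shares of all genes called were 8.5% with DESeq2, 22.1% with the batch term and 52.7% with replicates 1 and 4 only. Without shCtrl replicate 2 the share was 18.3%. Over all genes the count was 104, against 639 with every gene above 0 counts, 1321 with DESeq2, 24 with limma-voom, 232 with the replicate block, 3799 with the batch term, 9186 with replicates 1 and 4 only, and 0 to 3239 when a library was left out. The sign turned for Hey2 with limma-voom (-0.0315), the replicate block (-0.00429) and the batch term (-0.00327), and ranged from -0.18 to 0.27 with a library left out. Hes1 ranged from -0.15, without shYthdf2 replicate 2, to 1.03. The other 8 genes kept their direction in all 15 alternatives, but with a library left out their log2 fold changes ranged from 0.22 to 0.56 for Notch1, 0.14 to 0.36 for Notch2, 0.17 to 0.47 for Notch3, 0.07 to 0.17 for Dll1, -0.46 to -0.20 for Dll3, 0.27 to 0.65 for Jag1, 0.43 to 1.69 for Hes5 and 0.07 to 0.25 for Hey1. The cause of these changes was not tested. With the block, the log2 fold change of Notch2 was 0.27, and that of Hes5 was 0.99. Counting error is largest for Hes1, Hes5, Dll3 and Hey2, which had under 100 counts in every library.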
